A study of Arabidopsis thaliana with 9 samples.

Results

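The comparison described here set leaf RNA of F1 plants from a cross of Col-0 with ddm1 against leaf RNA of wild-type Col-0, the standard laboratory accession of Arabidopsis thaliana. All libraries carrying those 2 titles were used, which gave 3 F1 and 3 Col-0 libraries of the 9 in the series, and 33323 nuclear loci of the 33602 loci in the tables; chloroplast and mitochondrial loci were left out. The F1 plants carried 1 functional and 1 mutant DDM1 allele, the Col-0 plants carried functional DDM1 only, and the other 3 libraries came from homozygous ddm1 plants labelled as the 2nd generation. Leaves were taken at an age of 4 to 5 weeks, and the labels call the 3 samples of a group independent biological replicates. The labels give neither the hour of harvest nor the growth batch, so genotype, growth batch and hour of harvest cannot be told apart in any result below.

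DDM1 is a chromatin remodeler that is needed to keep DNA methylation on transposons and other repeats, and in ddm1 mutants many transposons that are silent in wild type are transcribed. Methylation lost in a ddm1 parent can be passed to the F1 on the chromosomes that came from that parent. Leaf transcripts also follow the time of day: a circadian clock of morning and evening genes that repress one another sets daily rhythms in photosynthesis, starch use and growth.

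Nuclear loci received 5288226 to 6733511 estimated counts per library in the 6 libraries, and chloroplast and mitochondrial loci took the rest, 64.7% to 68.9% of all counts in Col-0 and 70.6% to 72.8% in F1. DDM1 itself had 0.5, 1.87 and 0.692 counts per 1000000 nuclear counts (CPM) in the Col-0 libraries, 0.364, 0 and 1.17 CPM in F1 and 0.134, 0.364 and 0.44 CPM in ddm1. These levels were too low to be tested and do not check the genotype labels. Transposon (TE) genes took 0.248% to 0.261% of nuclear counts in Col-0, 3.15% to 3.61% in F1 and 8.92% to 9.40% in ddm1. That share was 13.2-fold higher in F1 than in Col-0, and a two-sided exact permutation test gave p = 0.1, the smallest value that 3 against 3 libraries allow. The leaf label was checked against markers of other organs: the meristem markers STM, CLV3 and WUS and all 4 seed storage markers had 0 counts in the 6 libraries, and the summed level of the 8 flower and pollen markers was 2.08 to 32 CPM in Col-0 and 3.2 to 9.22 CPM in F1. The 4 root markers were not absent, with a summed level of 40.3 to 66.1 CPM in Col-0 and 28.2 to 43.4 CPM in F1. The leaf mesophyll markers RBCS1A, LHCB1.3, RCA and CA1 together had 24519 to 45825 CPM in Col-0 and 6755 to 13404 CPM in F1.

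Of 16279 non-TE nuclear genes that passed the low-count filter, 1245 (7.65%) were higher in F1 and 1870 (11.5%) were lower, at an adjusted p under 0.05 in edgeR's quasi-likelihood test. The median change among them was 2.49-fold for the higher genes and 3.62-fold for the lower genes, and the median log2 change of all 16279 was -0.01. Of the higher genes 55 had 0 counts in Col-0, and of the lower genes 16 had 0 counts in F1. Those genes passed the filter through 1 group alone and could be called in 1 direction only. Many calls were lost when 1 library was left out: 469 higher and 817 lower genes were called whichever of the 6 libraries was left out. Without F1 replicate 1 the counts were 523 higher and 952 lower. Without F1 replicate 2 they were 671 and 986, without Col-0 replicate 2 they were 707 and 1037, and without Col-0 replicate 1 they were 845 and 1207. The same genes were tested in the homozygous ddm1 leaves with the same fit. In ddm1, 91 (0.559%) were higher and 70 (0.43%) lower than in Col-0, while F1 was higher than ddm1 at 1022 (6.28%) and lower at 1313 (8.07%). The low-count filter used the Col-0 and F1 libraries only, so a locus seen only in ddm1 was not tested. All 9 libraries shared 1 estimate of spread, and without ddm1 replicate 3 the F1 calls against Col-0 were 1751 higher and 2335 lower. Comparisons that share a group of libraries are not independent, so their values are given side by side below.

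Circadian clock genes moved in opposite directions by their usual time of day. The morning-expressed MYB factors CCA1 and LHY fell in F1, as did 6 of their relatives and partners, and genes that normally peak in the afternoon and evening, among them TOC1, PRR5, COR27, LUX and FKF1, rose. In the textbook clock, CCA1 and LHY bind a short promoter sequence called the evening element and repress the evening genes, TOC1 and other PRR proteins repress CCA1 and LHY, and the evening complex of ELF3, ELF4 and LUX acts later in the night. The promoters below, 300 bases upstream of the outermost annotated start of each gene (RefSeq annotation of TAIR10.1), belong to some of the clock genes called in F1. Capitals in the first 4 mark the evening element AAAATATCT on either strand.
TOC1, chr5:24674663-24674962, plus strand: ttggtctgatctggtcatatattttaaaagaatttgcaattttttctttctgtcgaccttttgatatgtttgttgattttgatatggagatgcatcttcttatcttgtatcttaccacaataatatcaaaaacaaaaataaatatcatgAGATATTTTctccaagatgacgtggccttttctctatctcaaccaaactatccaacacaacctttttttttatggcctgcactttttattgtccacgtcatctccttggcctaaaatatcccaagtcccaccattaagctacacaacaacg
PRR5, chr5:8358547-8358846, minus strand: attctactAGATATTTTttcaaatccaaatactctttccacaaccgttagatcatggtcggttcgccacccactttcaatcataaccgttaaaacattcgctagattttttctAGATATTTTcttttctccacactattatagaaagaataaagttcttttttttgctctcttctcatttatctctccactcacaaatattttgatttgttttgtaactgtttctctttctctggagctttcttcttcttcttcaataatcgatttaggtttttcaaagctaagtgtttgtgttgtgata
LUX, chr3:17182742-17183041, plus strand: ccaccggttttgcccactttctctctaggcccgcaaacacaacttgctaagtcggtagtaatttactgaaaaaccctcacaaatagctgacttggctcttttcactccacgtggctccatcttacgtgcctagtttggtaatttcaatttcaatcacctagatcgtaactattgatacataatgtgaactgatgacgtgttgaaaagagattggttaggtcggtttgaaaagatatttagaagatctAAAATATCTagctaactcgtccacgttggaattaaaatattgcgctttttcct
FKF1, chr1:25508339-25508638, plus strand: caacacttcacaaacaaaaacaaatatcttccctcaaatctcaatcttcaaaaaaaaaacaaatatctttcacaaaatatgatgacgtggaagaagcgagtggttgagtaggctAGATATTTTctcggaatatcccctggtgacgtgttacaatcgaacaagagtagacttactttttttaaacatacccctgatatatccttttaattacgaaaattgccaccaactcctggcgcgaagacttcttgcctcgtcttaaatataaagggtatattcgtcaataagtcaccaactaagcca
Capitals in the next pair mark the G-box CACGTG, which reads the same on both strands and shares no position with an evening element here.
CCA1, chr2:19245291-19245590, plus strand: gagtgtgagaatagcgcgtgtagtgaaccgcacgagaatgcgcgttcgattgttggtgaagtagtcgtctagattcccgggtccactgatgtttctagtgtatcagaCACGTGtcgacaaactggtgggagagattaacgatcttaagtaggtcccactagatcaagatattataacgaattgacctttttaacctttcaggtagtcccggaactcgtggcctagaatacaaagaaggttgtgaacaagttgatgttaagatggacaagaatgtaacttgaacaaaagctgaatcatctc
LHY, chr1:37872-38171, minus strand: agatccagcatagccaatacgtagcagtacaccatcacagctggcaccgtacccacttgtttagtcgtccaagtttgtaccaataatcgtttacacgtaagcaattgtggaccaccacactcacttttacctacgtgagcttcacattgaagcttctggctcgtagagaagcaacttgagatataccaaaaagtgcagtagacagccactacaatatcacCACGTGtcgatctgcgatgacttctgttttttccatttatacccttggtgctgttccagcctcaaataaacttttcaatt
Among the 10 clock genes that rose and whose promoters were searched, 5 had an evening element in this window (BOA in addition to the 4 printed), and none of the 8 that fell had one. The same letters were in 2.99% of the 15893 promoters searched of tested protein-coding genes. A G-box was in 4 of the 8 clock genes that fell and 2 of the 10 that rose, against 8.22% of all 15893. A match describes the letters of the window and is not evidence of binding.

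Among the morning genes, LHY (chr1:33365-37871, minus strand) had 295, 296 and 325 CPM in the Col-0 libraries, 2, 4.09 and 2.49 CPM in F1 and 230.1, 169 and 214 CPM in ddm1. Its F1 level was 106-fold lower (log2 -6.73, SE 0.33, adjusted p = 2.3e-06). CCA1 (chr2:19245591-19248915, plus strand), which acts with LHY, had 156, 213 and 179 CPM in Col-0, 10.4, 12.1 and 11.8 CPM in F1 and 95.9, 95.6 and 106 CPM in ddm1, and in F1 it was 16-fold lower (log2 -4.00, SE 0.21, adjusted p = 2.4e-06). For both genes every F1 library lay below every Col-0 and every ddm1 library. LNK2, one of a small family of coactivators that work with RVE proteins, had 378, 449 and 369 CPM in Col-0 and 32, 39.6 and 34.4 CPM in F1, and was 11.3-fold lower (log2 -3.50, SE 0.22, adjusted p = 5.6e-06). RVE8, a MYB factor that activates evening genes, had 51.7, 60.9 and 48.4 CPM in Col-0 and 8, 5.68 and 13.6 CPM in F1, and was 5.86-fold lower (log2 -2.55, SE 0.31, adjusted p = 0.00037). LNK1, LNK4 and LNK3 fell by smaller amounts, with log2 changes of -2.01, -1.54 and -1.41. In all, 8 of the 12 tested MYB and LNK genes fell and none rose, beside 11.5% and 7.65% of non-TE genes, with a median log2 change of -1.75. RVE1 is the eighth, with a log2 change of -1.96, and its call was lost without Col-0 replicate 2 (adjusted p = 0.0522) and without F1 replicate 1 (adjusted p = 0.0566). RVE4, RVE7, AT5G52660 and RVE2 were not called, with log2 changes from -0.59 to 2.26.

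Of the PRR family with COR27 and its relative AT4G33980, 5 of 7 tested genes rose and none fell, beside 7.65% and 11.5% of non-TE genes. The median log2 change of the 7 was 3.73. TOC1, a PRR protein that represses CCA1 and LHY, had 17.5, 13.4 and 18.4 CPM in Col-0, 322, 334 and 259 CPM in F1 and 11, 14.7 and 14.8 CPM in ddm1. It was 18.5-fold higher (log2 4.21, SE 0.24, adjusted p = 3.5e-06) in F1. PRR5 had 2.67, 0.466 and 4.57 CPM in Col-0 and 34.5, 42.4 and 26.6 CPM in F1, and was 13.2-fold higher (log2 3.73, SE 0.58, adjusted p = 0.0019). PRR3 was 11.5-fold higher (log2 3.53, SE 0.39, adjusted p = 0.00025). COR27, a small protein that represses clock genes and freezing tolerance, had 0.834, 0.466 and 0.83 CPM in Col-0 and 54.9, 71 and 40.1 CPM in F1, and was 75.6-fold higher (log2 6.24, SE 0.39, adjusted p = 5.6e-06). AT4G33980 (chr4:16282281-16285229, minus strand) had 0 counts in the 3 Col-0 libraries and 35.8, 26.8 and 20 CPM in F1, at least 181-fold higher (adjusted p = 0.00023). It passed the low-count filter through F1 alone, so it could only be called higher. PRR9 and PRR7, which peak earlier in the day, were not called, with log2 changes of -0.21 and -0.02.

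Of the evening complex, GI and F-box genes, 6 of 9 rose and none fell, beside 7.65% and 11.5% of non-TE genes. The median log2 change of the 9 was 2.68. FKF1 (chr1:25508639-25510907, plus strand), a blue-light receptor with an F-box that helps to degrade repressors of flowering, had 0 counts in all Col-0 and all ddm1 libraries and 38.4, 59.5 and 43.4 CPM in F1. It was at least 309-fold higher (adjusted p = 0.00017) than in Col-0. FKF1 passed the low-count filter through F1 alone and could only be called higher. LUX, the DNA-binding part of the evening complex, had 2, 0.933 and 0.138 CPM in Col-0 and 54.6, 78.7 and 54.6 CPM in F1, and was 61.8-fold higher (log2 5.95, SE 0.81, adjusted p = 0.00088). Its close relative BOA was 45.3-fold higher (log2 5.50, SE 0.65, adjusted p = 0.00035). ELF3, the scaffold of the evening complex, had 26, 40.6 and 21 CPM in Col-0 and 219.8, 184 and 159 CPM in F1, and was 6.42-fold higher (log2 2.68, SE 0.32, adjusted p = 0.00038). GI, a partner of FKF1, had 95.4, 91.1 and 139 CPM in Col-0 and 426, 476 and 449 CPM in F1, and was 4.15-fold higher (log2 2.05, SE 0.24, adjusted p = 0.00029). The sixth, ELF4, had a log2 change of 3.10 and an adjusted p of 0.029, and its call was lost when any 1 of Col-0 replicates 1 and 2 and F1 replicates 1, 2 and 3 was left out (adjusted p from 0.0503 to 0.0907). ZTL and LKP2, F-box relatives of FKF1, and CHE were not called, with log2 changes of -0.04, 0.56 and -1.71.

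The homozygous ddm1 leaves, whose clock genes were fitted in the same model, had 1 call against Col-0 among these 28 genes, CCA1, which was lower at log2 -0.88 (adjusted p = 0.02). The F1 leaves differed from ddm1 at 7 morning genes, all lower in F1, and at 5 PRR and COR27 genes and 6 evening genes, all higher in F1.

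**Figure D1:**
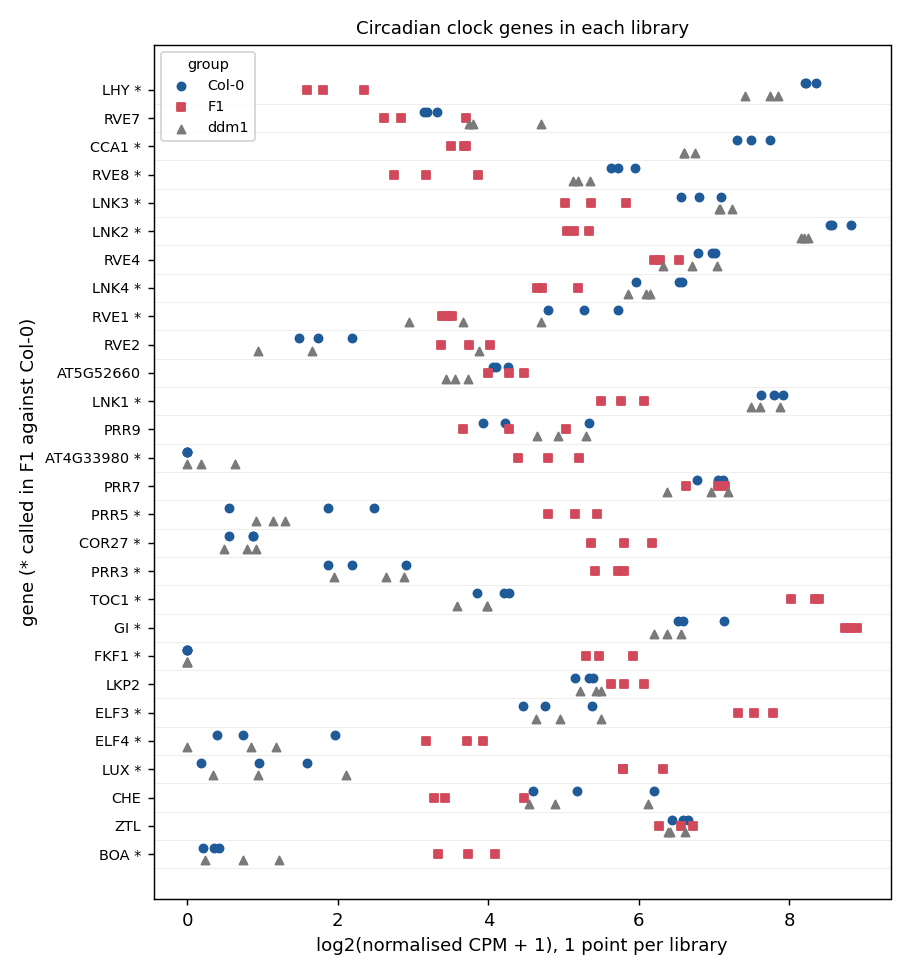
Level of each tested clock gene in each of the 9 libraries, on the horizontal axis as log2(CPM + 1), with circles for Col-0, squares for F1 and triangles for ddm1; a star marks a gene called in F1 against Col-0. The F1 squares of LHY lie between 2 and 4.09 CPM, left of all other libraries, and those of TOC1, between 259 and 334 CPM, lie right of them.

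Outputs of the clock toward flowering moved less uniformly. Of 8 tested CDF, CONSTANS-like and florigen genes (10 listed), 3 fell and 1 rose, beside 11.5% and 7.65% of non-TE genes. The median log2 change of the 8 was -0.33. COL2, a B-box protein related to CONSTANS and transcribed in the morning, had 46.9, 71 and 33.1 CPM in Col-0, 2.18, 0.355 and 2.63 CPM in F1 and 21.7, 27.7 and 53.3 CPM in ddm1, and was 28.4-fold lower (log2 -4.83, SE 0.62, adjusted p = 0.0006) in F1. The other 3 calls were each lost when any 1 of several libraries was left out. With Col-0 replicate 2, F1 replicate 1 or F1 replicate 3 left out, COL2 was the only listed gene called lower. AT1G69570, called higher at log2 1.54, was not called without Col-0 replicate 1 or 2, F1 replicate 1 or 2, or ddm1 replicate 1 or 2. Nor was it called in a fit of the 6 libraries alone. FT, the florigen, was not called (log2 -0.39), and CO was too low to be tested. CIB1, a bHLH factor that works with cryptochrome in the control of FT, had 6.84, 25 and 11.3 CPM in Col-0 and 0 counts in F1, at least 86.3-fold lower (adjusted p = 0.0058). It passed the low-count filter through Col-0 alone and could only be called lower. Among the 17 tested B-box genes, 3 rose and 2 fell, beside 7.65% and 11.5% of non-TE genes, so the falls were near that share. BBX8 had 3.84, 3.42 and 0.415 CPM in Col-0 and 66.9, 56.7 and 54.1 CPM in F1 and was 23.3-fold higher (log2 4.54, SE 0.80, adjusted p = 0.0036), while STO fell, with a log2 change of -1.35.

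Of 16 tested genes of the PIF and light-signalling list (18 listed), 7 fell and 1 rose, beside 11.5% and 7.65% of non-TE genes. SPA1, a partner of the COP1 ubiquitin ligase, had 268, 291 and 285 CPM in Col-0 and 117, 109.9 and 154 CPM in F1, and was 2.22-fold lower (log2 -1.15, SE 0.21, adjusted p = 0.0041). PIF1, a bHLH factor destroyed in light by phytochromes, had 35.7, 37.2 and 45.1 CPM in Col-0 and 12.7, 13.9 and 20.9 CPM in F1, and was 2.48-fold lower (log2 -1.31, SE 0.24, adjusted p = 0.004). The count of 7 became 4 without Col-0 replicate 2 and 3 without F1 replicate 1 or without F1 replicate 2. The single rise, PHYA (log2 1.05), was lost without any 1 of Col-0 replicates 1 and 2 and F1 replicates 1 and 2, and also without ddm1 replicate 1.

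Nuclear genes of photosynthesis fell together in F1. Calls were made lower for 14 of 20 antenna genes, which encode the chlorophyll-binding proteins that collect light, for 24 of 29 nuclear genes of the photosystems and electron transport, for 15 of 17 Calvin cycle genes and for 8 of 18 genes of chlorophyll synthesis, and no gene of the 4 lists rose. These counts compare with 11.5% lower and 7.65% higher among all non-TE genes. The median log2 changes were -1.83, -1.85, -2.52 and -1.95 in that order. All listed genes passed the low-count filter except CP12-3 of the Calvin cycle.

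LHCB1.1 had 3969, 6453 and 2252 CPM in the Col-0 libraries, 58, 74.6 and 95.2 CPM in F1 and 1479, 1863 and 7512 CPM in ddm1, and was 55.6-fold lower (log2 -5.80, SE 0.77, adjusted p = 0.00075) in F1. LHCB2.1 had 5019, 5799 and 3146 CPM in Col-0 and 73.8, 112 and 170.0 CPM in F1, and was 39.2-fold lower (log2 -5.29, SE 0.57, adjusted p = 0.00021). LHCB2.2 was 31-fold lower (log2 -4.95, SE 0.77, adjusted p = 0.0018). For these 3 genes no F1 library came near the Col-0 range, whereas the near-identical copies LHCB1.3 and LHCB1.5 were not called, with log2 changes of -0.76 and -0.56; reads shared by LHCB1 copies could be split between them in more than 1 way, so values of single copies are uncertain. LHCB6, an antenna protein with a single gene, had 1883, 2548 and 877 CPM in Col-0 and 127, 134 and 381 CPM in F1, and was 8.27-fold lower (log2 -3.05, SE 0.61, adjusted p = 0.0072). Antenna calls fell from 14 to 9 without Col-0 replicate 2, to 6 without F1 replicate 1 and to 8 without F1 replicate 2.

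Of the photosystem subunits, PSAH2 and PSAK of photosystem I and PSBX of photosystem II were called whichever library was left out. PSAK had 749, 1183 and 337 CPM in Col-0 and 58.2, 52.2 and 163 CPM in F1, and was 8.29-fold lower (log2 -3.05, SE 0.62, adjusted p = 0.0076). PSBX had 582, 696 and 352 CPM in Col-0 and 62.4, 51.9 and 173 CPM in F1, and was 5.67-fold lower (log2 -2.50, SE 0.51, adjusted p = 0.0076). PETE1, a plastocyanin that carries electrons to photosystem I, was 5.02-fold lower (log2 -2.33, SE 0.46, adjusted p = 0.0068), and PETC, the Rieske protein of the cytochrome complex, was 3.52-fold lower (log2 -1.82, SE 0.34, adjusted p = 0.0047). The count of 24 was 12 without Col-0 replicate 2, 9 without F1 replicate 1 and 10 without F1 replicate 2.

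In the Calvin cycle, RCA, the activase of Rubisco and the most abundant gene of the list, had 17282, 19565 and 16587 CPM in Col-0, 2717, 3229 and 3371 CPM in F1 and 14715, 12470 and 16749 CPM in ddm1. It was 5.74-fold lower (log2 -2.52, SE 0.31, adjusted p = 0.00041) in F1, and the groups did not overlap. SBPASE, the bisphosphatase that regenerates the carbon acceptor, had 848, 1156 and 537 CPM in Col-0 and 63.6, 33.9 and 101 CPM in F1, and was 12.8-fold lower (log2 -3.68, SE 0.54, adjusted p = 0.0014). GAPB, a subunit of the plastid dehydrogenase of the cycle, was 11.4-fold lower (log2 -3.51, SE 0.62, adjusted p = 0.0036), and PRK, which makes the substrate of Rubisco, was 5.35-fold lower (log2 -2.42, SE 0.52, adjusted p = 0.0097). CP12-1, a small regulator of PRK and the dehydrogenase, was not called (log2 0.69). Calvin cycle calls numbered 9 without Col-0 replicate 2, 8 without F1 replicate 1 and 9 without F1 replicate 2, in place of 15.

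In chlorophyll synthesis, CHLH, the large subunit of the magnesium chelatase, had 2213, 3406 and 1099 CPM in Col-0 and 135, 123 and 237 CPM in F1, and was 13.6-fold lower (log2 -3.76, SE 0.71, adjusted p = 0.0054). GUN4, which activates the chelatase, had 185, 379.9 and 109 CPM in Col-0 and 12.5, 4.8 and 27.6 CPM in F1, and was 14.9-fold lower (log2 -3.90, SE 0.72, adjusted p = 0.0048). CRD1 was 10-fold lower (log2 -3.32, SE 0.65, adjusted p = 0.0063), and CAO, which makes chlorophyll b, was 8.01-fold lower (log2 -3.00, SE 0.54, adjusted p = 0.0041). Chlorophyll synthesis had 5 calls in place of 8 without Col-0 replicate 2, without F1 replicate 1 or without F1 replicate 2.

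The Col-0 libraries themselves differed in these genes. The summed level of the 20 antenna genes was 48180, 68211 and 30288 CPM in Col-0 replicates 1 to 3, 9849, 15181 and 21276 CPM in F1 and 30887 to 84905 CPM in ddm1. Even the lowest Col-0 library was above the highest F1 library, and the ddm1 range lay above the F1 range as well. The Calvin cycle genes summed to 28942 to 52194 CPM in Col-0 and 7237 to 9866 CPM in F1, and the chlorophyll genes to 3824 to 10800 and 1010 to 1626 CPM, again with no overlap. Of the 4 mesophyll markers, which overlap these lists, 3 fell, 1 without F1 replicate 1 or F1 replicate 2; a lower share of mesophyll cells and less of these RNAs per cell cannot be told apart in bulk leaf RNA. The organelle share of all counts was 71.6% ± 1.13 (SD, n = 3) in F1 and 67.3% ± 2.33 (SD, n = 3) in Col-0, with p = 0.1 in a two-sided exact permutation test. With organelle loci kept in the fit, 1189 non-TE genes were called higher and 1914 lower, against 1245 and 1870 without them. Whether the organelle share had a part in the falls above was not tested. Of the 5 tested guard cell, trichome and phloem markers none was called, nor was either of the 2 tested root markers or the 1 tested flower marker, and SUC2, the phloem sucrose carrier, had a log2 change of -0.03. These are edgeR counts; at an unadjusted p under 0.05 they were 0, 1 and 0, and with DESeq2 0, 0 and 0, in that order.

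**Figure D2:**
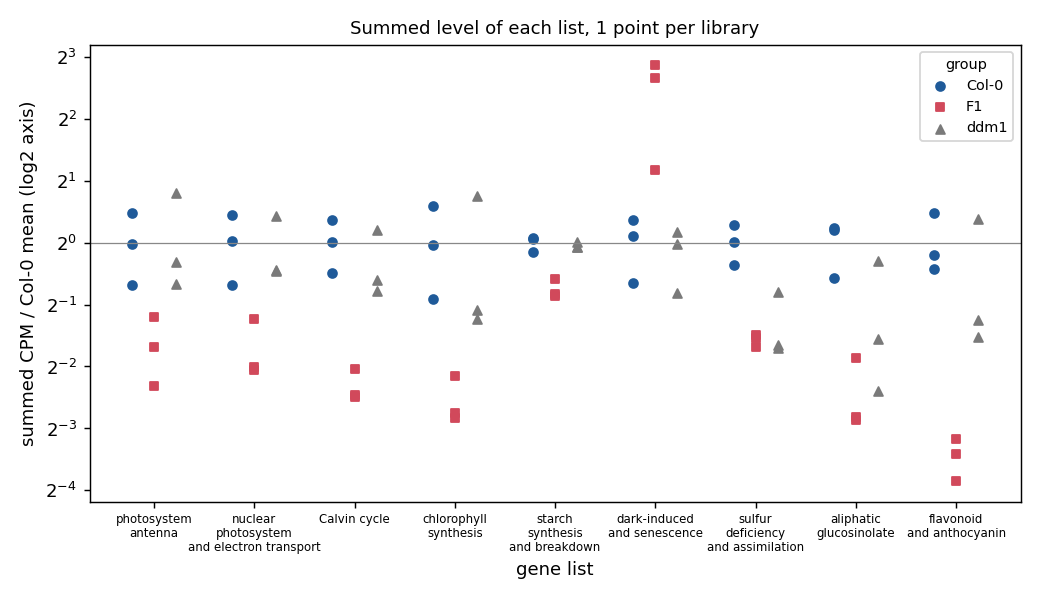
Summed CPM of 9 gene lists in each library, divided by the mean of the 3 Col-0 libraries, on a vertical log2 axis; circles are Col-0, squares F1 and triangles ddm1, 1 point per library. For the antenna, Calvin cycle and chlorophyll lists all 3 F1 libraries lie below all Col-0 libraries, and for the dark-induced list all lie above them.

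Of 30 tested starch genes, 14 were lower and 1 was higher, beside 11.5% lower and 7.65% higher of all non-TE genes. The median log2 change of the 30 was -1.07. GBSS1, the granule-bound synthase that makes amylose and a gene with a strong daily rhythm, had 628, 607 and 800.1 CPM in Col-0, 7.64, 16.9 and 6.14 CPM in F1 and 611, 589.9 and 416 CPM in ddm1. It was 66.5-fold lower (log2 -6.05, SE 0.46, adjusted p = 1.9e-05) in F1, with no F1 library near the other 6. The soluble starch synthases SS1, SS2 and SS3 fell, with log2 changes of -1.63, -1.92 and -2.18, and so did the subunits APL1, APL3 and ADG1 of ADP-glucose pyrophosphorylase, the committed step of starch synthesis, at -2.70, -2.05 and -1.40. ISA2, a subunit of the debranching enzyme of starch synthesis, had 65.2, 72 and 78.3 CPM in Col-0 and 5.82, 6.75 and 27.5 CPM in F1, and was 5.33-fold lower (log2 -2.41, SE 0.52, adjusted p = 0.011). On the breakdown side, the maltose exporter MEX1 and DPE2, which uses maltose in the cytosol, fell (log2 -1.45 and -1.41). The amylases BAM1, BAM3 and AMY3 and the debranching enzymes ISA3 and LDA were not called, with log2 changes of -0.03, -0.62, 0.42, 1.25 and 0.27. The single higher call was GWD1, which adds the phosphate that opens starch to breakdown (log2 0.68). It was lost without any 1 of the Col-0 libraries, of F1 replicates 1 and 2 or of ddm1 replicates 1 and 2 (adjusted p from 0.0557 to 0.0937), while 2 starch genes were called higher without F1 replicate 3, 3 in a fit of the 6 libraries alone or with RLE size factors, and 4 without ddm1 replicate 3, with DESeq2 or with another low-count filter or none.

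Genes known to be induced in darkness or in starved and ageing leaves rose: 6 of 13 tested (16 listed) were higher and none lower. The shares of all non-TE genes were 7.65% higher and 11.5% lower. The median log2 change of the 13 was 1.59. SEN1, a standard marker of dark treatment, had 86.1, 19.7 and 107 CPM in Col-0, 1911, 1713 and 365 CPM in F1 and 13, 33.9 and 9.47 CPM in ddm1, and was 18.8-fold higher (log2 4.23, SE 0.85, adjusted p = 0.0074) in F1. DIN10, annotated as a raffinose synthase-like gene, had 60.7, 105 and 127 CPM in Col-0 and 1928, 1394 and 442 CPM in F1, and was 12.9-fold higher (log2 3.69, SE 0.63, adjusted p = 0.003). For both genes F1 replicate 3 was the lowest F1 library and still above every Col-0 library. BCAT2, an aminotransferase of branched-chain amino acids, had 4.67, 3.11 and 12.9 CPM in Col-0, 333, 198 and 102 CPM in F1 and 42.8, 25.1 and 1.98 CPM in ddm1, and was 30.3-fold higher (log2 4.92, SE 0.99, adjusted p = 0.0074) in F1. DIN4 and DIN3, subunits of the complex that oxidises branched-chain keto acids, were also higher (log2 2.39 and 1.59); the call of DIN3 was lost without Col-0 replicate 2, Col-0 replicate 3 or F1 replicate 1 (adjusted p from 0.0597 to 0.0731). SAG21 was 6.99-fold higher (log2 2.80, SE 0.49, adjusted p = 0.0034). ASN1, the dark-induced asparagine synthetase, had 25, 30.3 and 52.3 CPM in Col-0 and 371, 165 and 25.9 CPM in F1 and was not called (adjusted p = 0.13). Genes of chlorophyll breakdown were not called: NYE1, PPH and PAO had log2 changes of 0.62, 0.97 and 0.88. The senescence marker SAG12 had at most 0.311 CPM in Col-0 and 0 counts in F1.

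**Figure D3:**
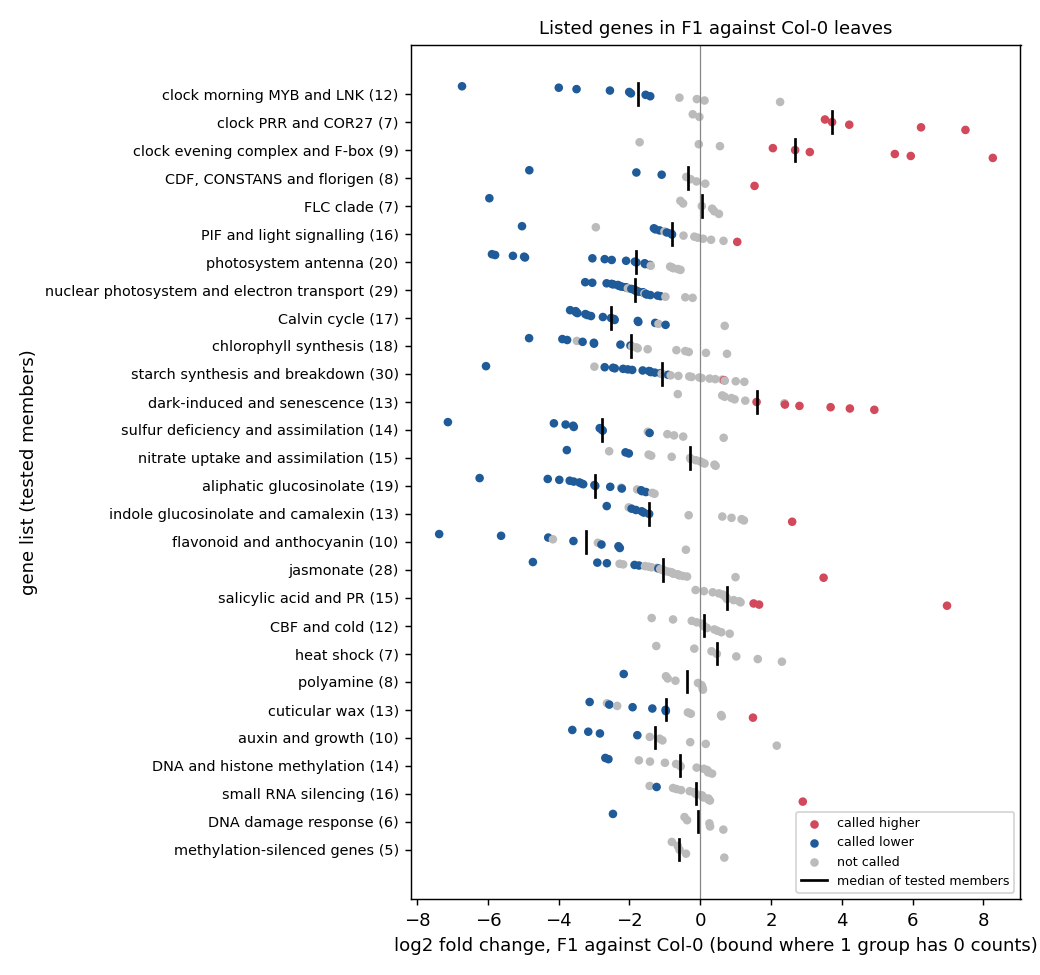
Log2 change in F1 against Col-0 of every tested member of 28 gene lists with at least 5 tested members, 1 point per gene, with the number tested in brackets; a black bar is the list median, red and blue points were called, and a gene with 0 counts in 1 group is drawn at its bound. The medians of the clock PRR, clock evening and dark-induced lists lie to the right of 0, and those of the photosynthesis, sulfur, aliphatic glucosinolate and flavonoid lists lie to the left.

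FLC was at 0 counts in both F1 and ddm1 leaves. FLC (chr5:3173382-3179448, minus strand), a MADS-box repressor of flowering, had 9.67, 13.1 and 8.44 CPM in the 3 Col-0 libraries and 0 counts in all 3 F1 and all 3 ddm1 libraries. Its F1 level was at least 62.2-fold lower (adjusted p = 0.0017). FLC passed the low-count filter through Col-0 alone and could only be called lower. The other 6 genes of the FLC clade list, SVP and MAF1 to MAF5, were not called, with log2 changes from -0.56 to 0.53.

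In the list of sulfur shortage and sulfate assimilation, 9 of 14 tested genes (20 listed) fell in F1 and none rose, beside 11.5% and 7.65% of non-TE genes. No sulfate transporter was among the 9, and the median log2 change of the 14 was -2.77. In ddm1, 6 of the 14 were lower than in Col-0, and F1 was lower than ddm1 at 1. APR1, 1 of the reductases that commit sulfate to reduction, had 444, 426 and 329.7 CPM in Col-0, 18, 30.2 and 20 CPM in F1 and 41.1, 51.3 and 118 CPM in ddm1. It was 17.6-fold lower (log2 -4.14, SE 0.44, adjusted p = 0.0002) in F1, and the groups did not overlap. APR2 had 530.5, 617 and 304 CPM in Col-0 and 39.1, 25.4 and 57.3 CPM in F1, and was 11.9-fold lower (log2 -3.57, SE 0.57, adjusted p = 0.0022); APR3 was 7.16-fold lower (log2 -2.84, SE 0.48, adjusted p = 0.0027). SDI1, a marker of sulfur deficiency that represses glucosinolate synthesis, had 42, 13.8 and 21.6 CPM in Col-0, 0, 0 and 0.439 CPM in F1 and 0.537, 0.364 and 1.32 CPM in ddm1. The F1 level was 151-fold lower, with a 95% counting interval of 51.5 to 737, and the adjusted p was 0.00044. Its relative AT1G04770 had 52.4, 32.5 and 22.8 CPM in Col-0, 3.82, 3.37 and 1.76 CPM in F1 and 4.3, 3.09 and 1.1 CPM in ddm1, and was 12.1-fold lower (log2 -3.59, SE 0.52, adjusted p = 0.0012) in F1. SHM7 was 6.92-fold lower (log2 -2.79, SE 0.31, adjusted p = 0.00025). GGCT2;1 and LSU2 were called lower as well (log2 -3.80 and -2.76). APS3, named for ATP sulfurylase, was the ninth (log2 -1.43), and its call was lost without Col-0 replicate 1 or 2 or F1 replicate 1 or 2 (adjusted p from 0.0539 to 0.0774). The GGCT2;1 call was lost without F1 replicate 2 (adjusted p = 0.0511), and that of LSU2 without Col-0 replicate 2, F1 replicate 1 or F1 replicate 2 (adjusted p from 0.0608 to 0.066). The transporter SULTR2;1 and the sulfurylase APS1 were not called (log2 -0.48 and -0.93).

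**Figure D4:**
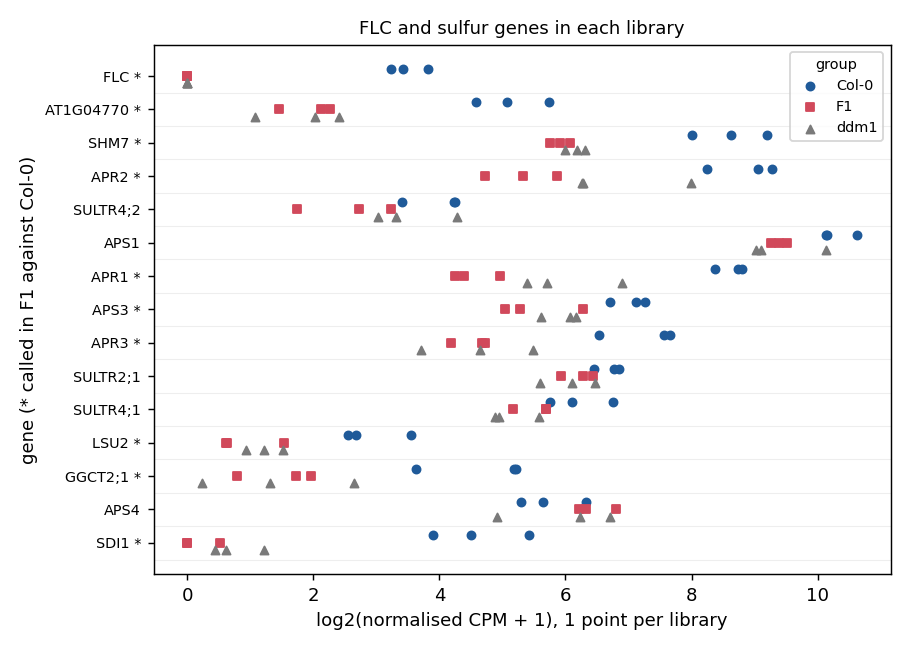
Level of FLC and of the tested sulfur genes in each of the 9 libraries as log2(CPM + 1), with circles for Col-0, squares for F1 and triangles for ddm1; a star marks a gene called in F1 against Col-0. FLC is at 0 in all F1 and ddm1 libraries, and for SDI1 and APR1 every Col-0 library lies right of every F1 and ddm1 library.

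Glucosinolates are sulfur-rich defence compounds of the mustard family. Of 19 tested genes of the aliphatic branch (20 listed), which builds them from methionine, 15 fell in F1 and none rose. The shares of all non-TE genes were 11.5% lower and 7.65% higher. The median log2 change of the 19 was -2.97, and without F1 replicate 1 the count of 15 was 9. MYB29, 1 of the MYB factors that switch the branch on, had 24.2, 21.6 and 20.1 CPM in Col-0, 0, 0 and 0.731 CPM in F1 and 10.5, 5.64 and 21.1 CPM in ddm1. It was 75.3-fold lower (log2 -6.23, SE 0.85, adjusted p = 0.00087) in F1. MYB28, the other main regulator, was 3.14-fold lower (log2 -1.65, SE 0.34, adjusted p = 0.0085). IMD1, which lengthens the methionine side chain, had 349.7, 208 and 252 CPM in Col-0, 8.91, 17.2 and 14.6 CPM in F1 and 18.4, 49.9 and 215 CPM in ddm1, and was 19.8-fold lower (log2 -4.31, SE 0.81, adjusted p = 0.0053) in F1. In ddm1 replicates 1 and 2 its level lay between the F1 and the Col-0 ranges, and in ddm1 replicate 3 it lay inside the Col-0 range. CYP83A1, the P450 that oxidises the aldoximes, had 799, 522 and 683 CPM in Col-0 and 89.3, 164 and 90.7 CPM in F1, and was 5.83-fold lower (log2 -2.54, SE 0.45, adjusted p = 0.0036). FMO GS-OX1 and FMO GS-OX3, which oxidise the sulfur of the side chain, fell, with log2 changes of -3.98 and -3.31. F1 differed from ddm1 at 4 of the 19, lower in each case, and ddm1 from Col-0 at none.

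Of 13 tested genes of the indole branch and camalexin (14 listed), 6 fell and 1 rose, beside 11.5% and 7.65% of non-TE genes. The single rise is near that share. SUR1, a lyase used by both branches, was 2.72-fold lower (log2 -1.44, SE 0.27, adjusted p = 0.0047). IGMT1, a methyltransferase that modifies indole glucosinolates, rose, with 16.2, 15.9 and 21.9 CPM in Col-0, 115, 101 and 112 CPM in F1 and 67.1, 65.9 and 14.3 CPM in ddm1, and was 6.06-fold higher (log2 2.60, SE 0.49, adjusted p = 0.0052). The 6 lower calls became 1 without Col-0 replicate 1 or without F1 replicate 1, 3 without Col-0 replicate 2 and 2 without F1 replicate 2. The 1 higher call became 2 without Col-0 replicate 1 or 2 and 3 without ddm1 replicate 3.

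Flavonoid and anthocyanin genes fell: 7 of 10 tested (19 listed) were lower and none higher, beside 11.5% and 7.65% of non-TE genes. The median log2 change of the 10 was -3.24. CHS, chalcone synthase, which starts the pathway, had 59, 90.3 and 48.3 CPM in Col-0, 1.09, 0.71 and 2.05 CPM in F1 and 122, 35.5 and 56.1 CPM in ddm1. It was 49.5-fold lower (log2 -5.63, SE 0.60, adjusted p = 0.00019) in F1. F3H, the next hydroxylase, was 19.6-fold lower (log2 -4.30, SE 0.61, adjusted p = 0.0011). PAP1, a MYB factor that switches anthocyanin synthesis on, had 12.8, 13.4 and 11.9 CPM in Col-0 and 0.182, 0 and 0 CPM in F1, the latter from 1 count. The F1 level was 228-fold lower, with a 95% counting interval of 40.5 to 9026, and the adjusted p was 0.00088. The flavonol glycosyltransferases UGT78D2 and UGT78D1 fell, with log2 changes of -2.79 and -2.27. The summed level of the list was 239 to 446 CPM in Col-0, 22.4 to 35.7 CPM in F1 and 111 to 419.9 CPM in ddm1, so F1 lay apart from both other groups.

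Hormone lists gave smaller counts, which stand beside 11.5% lower and 7.65% higher of all non-TE genes. In the salicylic acid list 3 of 15 tested genes (19 listed) rose and none fell, with a median log2 change of 0.74. PR1, a secreted protein that marks salicylic acid signalling, had 0.5, 0.155 and 0 CPM in Col-0, 41.5, 10.7 and 33.4 CPM in F1 and 0.134, 0.182 and 1.32 CPM in ddm1, and was 126-fold higher (log2 6.97, SE 0.97, adjusted p = 0.00095) in F1. ICS1, which makes the precursor of salicylic acid, and PR5 were higher at log2 1.51 and 1.66. Without F1 replicate 1, PR1 was the only 1 of the 3 still called; PR5 was also lost without Col-0 replicate 1 or 2. EDS1, PAD4 and NPR1 were not called (log2 0.68, 0.35 and 0.11). In the jasmonate list 6 of 28 tested genes (30 listed) fell and 1 rose. AOS, an early enzyme of jasmonate synthesis, had 1158, 528 and 669.8 CPM in Col-0, 249, 239.6 and 221 CPM in F1 and 515, 367 and 536 CPM in ddm1, and was 3.32-fold lower (log2 -1.73, SE 0.33, adjusted p = 0.0051) in F1. JAZ3, a repressor of jasmonate responses, was 3.62-fold lower (log2 -1.86, SE 0.23, adjusted p = 0.00049). The 6 became 3 without Col-0 replicate 1, 2 without F1 replicate 1 or 2, and 10 with DESeq2. The 1 higher gene, PDF1.2, a defensin induced by jasmonate and ethylene, was not called without Col-0 replicate 1 or 3 or F1 replicate 1 or 3, and without ddm1 replicate 3 a second gene was called. Against Col-0, the median log2 change of the 28 was -1.06 in F1 and -1.07 in ddm1. In ddm1, 2 of the 28 were lower than in Col-0 and none higher. F1 was higher than ddm1 at 1 of them and lower at 3. In the auxin and growth list 4 of 10 tested genes (16 listed) fell and none rose. IAA1, an early auxin-response repressor, was 8.96-fold lower (log2 -3.16, SE 0.48, adjusted p = 0.0014). It was the single call left without Col-0 replicate 2 or 3 or F1 replicate 1 or 2. The count was 2 without ddm1 replicate 2 and 2 with no low-count filter. Against Col-0, the median log2 change of the 10 auxin and growth genes was -1.29 in F1 and -0.82 in ddm1. None of the 10 was called in ddm1 against Col-0 or in F1 against ddm1.

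Of 13 tested cuticular wax genes (16 listed), 6 fell and 1 rose, beside 11.5% and 7.65% of non-TE genes. The single rise is near that share. CER3, which takes part in alkane formation, had 123, 159 and 129 CPM in Col-0 and 36, 37.1 and 36.1 CPM in F1, and was 3.76-fold lower (log2 -1.91, SE 0.29, adjusted p = 0.0015). ABCG12, a transporter of wax across the membrane, was 2.56-fold lower (log2 -1.35, SE 0.27, adjusted p = 0.0068). CER3 and ABCG12 were the genes called in every alternative; the count was 2 without any 1 of Col-0 replicates 1 and 2 and F1 replicates 1 and 2, and 3 with no low-count filter. The rise, DEWAX (log2 1.49), a repressor of wax synthesis, was lost without any of the same 4 libraries and without ddm1 replicate 2. Of 15 tested nitrate genes (16 listed) 3 fell and none rose, beside the same shares of 11.5% and 7.65%. GLU1, the ferredoxin-dependent glutamate synthase of photorespiration, had 2344, 3252 and 2041 CPM in Col-0 and 634, 509.9 and 741 CPM in F1 and was 4.05-fold lower (log2 -2.02, SE 0.30, adjusted p = 0.0013); it was the single call without F1 replicate 1 or 2, and 5 genes were called without ddm1 replicate 3. Of 8 polyamine genes, 1 fell, SAMDC4 (log2 -2.16), which is near the 11.5% of all non-TE genes. In this list 2 genes were called without F1 replicate 3, without ddm1 replicate 3 or in a fit of the 6 libraries alone. None of 12 tested cold-response genes (17 listed) and none of 7 tested heat-shock genes (16 listed) was called in edgeR. Among the cold genes, COR15A, CBF2, COR47 and RD29A had log2 changes of -1.37, -0.77, 0.83 and 0.60. At an unadjusted p under 0.05 the count was 0 of 12 and 2 of 7, and DESeq2 called 0 and 2. Apart from these lists, a family taken by cold shock and dehydrin names had 2 of 13 tested genes higher and none lower. Those 2 became 1 without Col-0 replicate 1, Col-0 replicate 2 or F1 replicate 2.

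Genes of the silencing machinery were mostly not called. Of 14 tested genes of DNA and histone methylation (18 listed), 2 fell and none rose, and of 16 tested small RNA genes 1 fell and 1 rose, beside 11.5% lower and 7.65% higher of all non-TE genes. The 2 that fell were the chromomethylase CMT3 and the demethylase DML3 (log2 -2.68 and -2.59); neither was called without Col-0 replicate 2, F1 replicate 1 or F1 replicate 3, and DML3 was also lost without Col-0 replicate 1, F1 replicate 2 or ddm1 replicate 1. The maintenance methyltransferase MET1 had 10, 33.1 and 8.44 CPM in Col-0 and 4.18, 4.97 and 9.95 CPM in F1 and was not called (log2 -1.42). The demethylase ROS1, DRM2 of RNA-directed methylation and the silencing factor MOM1 were not called either (log2 -0.68, 0.22 and -0.10). AGO3 was called higher and AGO4 lower (log2 2.90 and -1.23), and neither was called without Col-0 replicate 2, F1 replicate 1, F1 replicate 2, ddm1 replicate 1 or ddm1 replicate 2; AGO3 was also lost without Col-0 replicate 3 and AGO4 without Col-0 replicate 1, and 3 small RNA genes were called lower without F1 replicate 3. Neither was called in a fit of the 6 libraries alone, and AGO4 was also lost with RLE size factors and with another low-count filter or none. None of 5 tested genes known to be silenced by methylation (11 listed) was called, FWA and HDG9 had 0 counts, and SDC was below the filter; 2 of the 5 had an unadjusted p under 0.05 and DESeq2 called 1. Of 6 tested DNA damage genes (12 listed), PARP1, a polymerase recruited to DNA breaks, fell, and was 5.53-fold lower (log2 -2.47, SE 0.53, adjusted p = 0.01).

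Gene families were taken by their annotated names, and their counts stand beside 11.5% lower and 7.65% higher of all non-TE genes. The families described are a selection of the 24 counted. All 6 tested Ulp1 protease genes rose in F1, and each was also higher in ddm1 than in Col-0; these genes are relatives of SUMO proteases, many of them carried by transposons. In Col-0, 5 of the 6 had 0 counts, so they passed the low-count filter through F1 alone and could only be found higher. AT5G28810 (chr5:10823356-10826646) had 0 counts in Col-0, 54.2, 65.7 and 55.9 CPM in F1 and 87.7, 103 and 90.5 CPM in ddm1, at least 384-fold higher (adjusted p = 2.4e-06) in F1. Of 20 tested aquaporins, 6 fell and none rose. PIP1B, a water channel of the plasma membrane, had 977, 1104 and 939 CPM in Col-0 and 383, 380.4 and 435 CPM in F1 and was 2.52-fold lower (log2 -1.33, SE 0.26, adjusted p = 0.0056), and PIP2A was 3.83-fold lower (log2 -1.94, SE 0.28, adjusted p = 0.0011). Of 108 cytochrome P450 genes, 28 fell and 9 rose, and the 28 became 18 without Col-0 replicate 1, 16 without Col-0 replicate 2, 14 without F1 replicate 1 and 16 without F1 replicate 2. The 9 became 4 without Col-0 replicate 1 or 2 or F1 replicate 2, 2 without F1 replicate 1 and 14 without ddm1 replicate 3. Of 31 glutathione S-transferases, 7 rose and 6 fell. GSTF2 had 179.9, 95.6 and 157 CPM in Col-0 and 1259, 1043 and 1108 CPM in F1 and was 7.89-fold higher (log2 2.98, SE 0.37, adjusted p = 0.00047), and GSTU20 was 25.3-fold lower (log2 -4.66, SE 0.86, adjusted p = 0.0046). The 7 became 4 without Col-0 replicate 1 and 3 without Col-0 replicate 2 or F1 replicate 1, and the 6 became 3 without Col-0 replicate 1 or F1 replicate 1. Of 33 histone genes 8 were called higher and none lower, but no histone was called without F1 replicate 1, and 1, 4, 2, 2 and 5 were called without Col-0 replicate 1, Col-0 replicate 2, Col-0 replicate 3, F1 replicate 2 and ddm1 replicate 1. Of 38 WRKY genes, a family of defence regulators, 6 rose and 1 fell; 3 were called higher without Col-0 replicate 2, F1 replicate 1 or F1 replicate 2, and none lower without Col-0 replicate 2 or F1 replicate 2. Of 189 tested long noncoding RNAs, 23 rose and 2 fell; 15 rose without F1 replicate 1 or F1 replicate 2 and 40 with DESeq2. The 2 that fell, AT4G13495 (log2 -2.73) and AT5G06865 (log2 -1.34), became 1 without F1 replicate 1 or 2, 5 without F1 replicate 3 or ddm1 replicate 3 and 6 with DESeq2. Of 156 receptor-like kinases, 23 fell and 10 rose, near the shares of all non-TE genes, and without Col-0 replicates 1 and 2 and F1 replicates 1 and 2 in turn 11, 9, 8 and 8 fell; with DESeq2 37 fell. The 10 became 5 without Col-0 replicate 2 or F1 replicate 2, 4 without F1 replicate 1 and 16 without ddm1 replicate 3. BAK1, a co-receptor of brassinosteroid and immune receptors, rose (log2 0.99), and PERK10 fell (log2 -2.45). None of 30 tested heat shock protein genes was called in edgeR; 9 had an unadjusted p under 0.05 and DESeq2 called 4.

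Among the falls that belong to no list above, SQP1, annotated as an oxidoreductase, had 139, 172 and 114 CPM in Col-0, 1.27, 1.6 and 1.32 CPM in F1 and 71.2, 54.8 and 84.3 CPM in ddm1, and was 100.2-fold lower (log2 -6.65, SE 0.30, adjusted p = 1.9e-06) in F1. The F1 libraries were nearly equal and far below both other groups. PPT2, a plastid phosphoenolpyruvate translocator, had 75.9, 100 and 18 CPM in Col-0 and 0, 0 and 0.731 CPM in F1, and was 220.4-fold lower (log2 -7.78, SE 1.22, adjusted p = 0.0019). The serine carboxypeptidase-like gene scpl10 had 20.3, 34.4 and 40.4 CPM in Col-0 and 0 counts in F1, at least 189.9-fold lower (adjusted p = 0.0016). LpxC1 had 40.5, 35.8 and 26.2 CPM in Col-0 and 1 count in F1; the F1 level was 605-fold lower, with a 95% counting interval of 108 to 23937, and the adjusted p was 0.0035. The cellulose synthase-like genes CSLA01 and CSLG1 had 0 counts in F1, against 90.9, 116 and 2.49 CPM and 11, 16.2 and 3.18 CPM in the Col-0 libraries, at least 418-fold lower (adjusted p = 0.015) and at least 60.6-fold lower (adjusted p = 0.0056). D27, an isomerase that starts strigolactone synthesis, had 9.84, 9.64 and 4.15 CPM in Col-0 and 0 counts in F1, at least 47.2-fold lower (adjusted p = 0.0032). CYP96A12 and the arabinogalactan gene FLA2 were 92-fold and 90-fold lower. AT5G42760, annotated as a leucine carboxyl methyltransferase, had 8.67, 14.3 and 4.15 CPM in Col-0 and 0 counts in F1. The genes at 0 counts in F1 passed the low-count filter through Col-0 alone and could only be called lower.

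Of the 3881 TE genes, 707 passed the low-count filter, and 601 of these (85.0%) were higher in F1 and 3 (0.424%) lower. Of the 601, 430 had 0 counts in Col-0; they passed the filter through the F1 libraries alone and could only be found higher, so the share called is a description of the tested loci. With those set to a floor of 3 counts over the group, the median rise was 94.5-fold. The 6 TE genes named next had the largest fitted log2 rise, a value that places genes at 0 counts in Col-0 above some whose printed fold would be larger. AT4G04170 (chr4:2013697-2018328) had 0 counts in Col-0, 202, 802 and 143 CPM in F1 and 40.3, 67.3 and 61.9 CPM in ddm1, at least 2503-fold higher (adjusted p = 0.00033) in F1. It was the single 1 of these 6 with a higher level in every F1 library than in any ddm1 library. MEE19, annotated among these loci, had 376, 322 and 445 CPM in F1 and 727, 787 and 658 CPM in ddm1, and AT1G39110 had 362, 361 and 394 and 830.2, 859.6 and 660.0 CPM, from 0 counts in Col-0. AT2G13160, AT1G39830 and AT1G36460 showed the same order, with F1 means of 351, 272 and 229 CPM and ddm1 means of 601, 740.4 and 455 CPM. The 3 TE genes that fell were AT4G04410, with 31, 21.9 and 26.3 CPM in Col-0, 2.18, 0.533 and 1.76 CPM in F1 and 0 counts in ddm1, AT5G35777 (log2 -2.10) and AT5G35495 (log2 -3.53), the last lost without any 1 of the Col-0 libraries or of F1 replicates 1 and 2. Without F1 replicate 3, 9 TE genes were called lower, and with DESeq2 6 were.

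Non-TE genes that rose from 0 counts in Col-0 were placed along the chromosomes, as a description with no test. Of the 54 such genes with an annotated place, 38 (70.4%) lay in the pericentromere, taken as 2.5 Mb on either side of the most TE-rich 1 Mb window of each chromosome, against 5.91% of the 1184 other genes that rose and 5.92% of all tested non-TE genes. By annotation 39 of the 54 were protein-coding and 11 were pseudogenes, against 15895 and 97 of all 16211. A TE gene called higher lay within 2 kb of 6 of the 54 (11.1%), against 0.76% of the 1184 and 0.469% of all. Every ddm1 library was above every Col-0 library at 46 of the 54, at 206 of the 1184 and at 757 of all 16211 (4.67%); for a gene at 0 counts in Col-0, any count in every ddm1 library is enough. Among the 54, AT2G15555, a noncoding RNA (chr2:6785904-6786976), had 204, 175 and 165 CPM in F1 and 138, 228 and 319 CPM in ddm1, and AT5G29560, of the caleosin family, had 14.2, 28.8 and 5.7 and 3.36, 3.09 and 11.2 CPM. The other non-TE genes among the 15 with the largest fitted log2 rise were AT1G44040, AT5G33251, AT2G05642, AT1G41890, AT3G42436, AT1G20400, AT5G38190 and AT2G40955 and the Ulp1 genes AT5G28810, AT4G08430 and AT5G28235, all called higher in ddm1 than in Col-0 too, and FKF1 and AT4G33980, which had no call in ddm1. AT1G20400 had 1 count in Col-0 and the other 14 had none. AT1G20400, AT2G40955, AT5G38190, FKF1 and AT4G33980 lie outside the pericentromere as taken here. TE genes rose in both places, at 493 of 556 tested (88.7%) in the pericentromere and 108 of 151 (71.5%) on the arms. Of those that rose, 358 in the pericentromere and 72 on the arms had 0 counts in Col-0. These passed the filter through F1 alone and could only be found higher, so the shares describe the tested loci and do not compare the places.

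**Figure D5:**
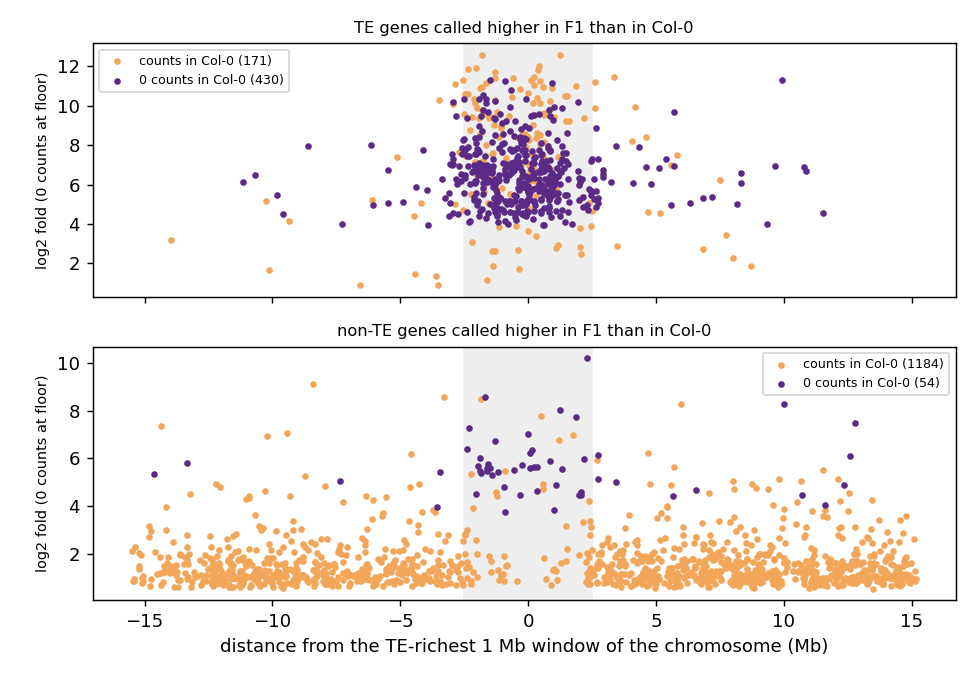
Distance of each TE gene (upper panel) and non-TE gene (lower panel) called higher in F1 from the most TE-rich 1 Mb window of its chromosome, in Mb, against its log2 fold, with genes at 0 counts in Col-0 drawn at their bound; the grey band is 2.5 Mb on each side. Dark points, with 0 counts in Col-0, gather in the band in both panels, and the light points of non-TE genes spread along the arms.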

How the data were processed

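RNA was depleted of ribosomal RNA and sequenced from directional libraries as single-end reads of 50 bases, per the labels' protocols. The authors deposited estimated counts per target and TPM values, which scale them to target length and to a fixed total, in the column layout of kallisto, per the file headers. Kallisto 0.46.0, TAIR10, STAR, deepTools, R 3.6.1, R 3.5.1 and DESeq2 1.22.2 are named, with no role, per the submitters' processing notes. For the kallisto index and its use of strand, nothing is given in the sources used here, so values of overlapping or antisense genes and of near-identical copies (LHCB1, the Rubisco small subunit genes, transposons) are uncertain. TPM was not tested.

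Estimated counts were rounded. Total counts were 19054161 to 21542443 per library in the 6 libraries, of which 5288226 to 6733511 were nuclear. Of the 33323 nuclear loci, 3881 were called TE genes (annotated pseudogenes with an mRNA model and an uncharacterized product); 488 nuclear loci had no match in the annotation and are counted as non-TE but not named. The 16986 nuclear loci passing edgeR's filterByExpr on the 6 Col-0 and F1 libraries were fitted over all 9 libraries with edgeR 4.0.16 in R 4.3.3 (TMM scaling, robust quasi-likelihood test, group as the only term), and p-values were adjusted by Benjamini-Hochberg over all tested loci. A locus was called at an adjusted p under 0.05. The SE printed with a log2 change is its absolute value divided by the square root of the F statistic of that test. It was derived from the test and was not estimated by the fit on its own. CPM are per 1000000 nuclear counts after TMM scaling. A fold against a group with 0 counts is a bound computed against 3 counts over that group, and with 1 to 3 counts a ratio with a 95% exact interval is given; both cover counting error only. In counts simulated from these libraries, 0 of 100 loci changed 2-fold and 50 of 100 changed 4-fold were called, and 3 unchanged loci of 16413 were. No other loci were changed, far fewer than the 1245 and 1870 non-TE genes called in the data. With so few, the Benjamini-Hochberg adjustment is stricter than in the data. The simulated shares therefore do not give the chance of a call here.

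The genes named include the 15 largest rises and falls in fitted log2 change among non-TE genes that met 3 conditions. They were called whichever of the 6 libraries was left out, their groups did not overlap and their mean was at least 3 CPM. Fitted change ranks genes at 0 counts in a group above some whose printed fold is larger. The 6 largest TE rises, ranked likewise, and all TE falls are named too. Others were drawn from called members of 34 gene lists and from the 2 most abundant called members each way of 24 families. Not every such member is named, and the families described are a selection of the 24. Uncalled list members are named as well-known members of their list. The comparison, the lists and the families were chosen with earlier results of these data known, the family of AP2/ERF names was corrected after the counts were seen, and the promoter windows were moved to the outermost annotated start after a first look; the promoter of 1 clock gene is not reported here. Alternatives were DESeq2 1.42.0, RLE size factors, other filters, the 6 libraries alone, organelle loci kept, a block for the replicate number and leaving out each library. Shares per library were compared by exact permutation tests in SciPy 1.17.1.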

Additional observations from a re-analysis of the deposited data

Results flagged for a closer look

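Chloroplast and mitochondrial loci, which the comparison left out, took 71.6% of all counts in F1, between 70.6% and 72.8% in the 3 libraries, and every F1 library was above every Col-0 library, whose range was 64.7% to 68.9%. The two-sided exact permutation test gave p = 0.1, the smallest value 3 against 3 libraries allow. The ddm1 libraries had 67.2% ± 0.854 (SD, n = 3).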

How the results depend on the processing

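Non-TE genes called higher numbered 1939 with DESeq2 and 722 with a replicate block, against 1245, and TE genes called lower numbered 6 with DESeq2, against 3. Leaving out each library in turn gave 523 to 1751 non-TE genes higher, 952 to 2335 lower, 594 to 713 TE genes higher and 2 to 9 lower, and a TE share 12.8 to 13.7-fold that of Col-0. The other settings stayed within 1.5 times of the main counts, with 1189 to 1587 non-TE genes higher, 1643 to 2480 lower (1410 with the block) and 585 to 880 TE genes higher; the TE share of all counts was 11.5-fold higher. Of the 282 called genes that the lists and the naming rule cover, 151 kept their call in every setting, and no result changed sign; the cause of the moves was not tested. Without a low-count filter the median log2 change of all tested loci was 0.14, and with a filter on all 9 libraries 0.12, against 0.03. Replicate numbers are shared between groups, but no label says that they mark a batch: deviations of same-numbered F1 and Col-0 libraries correlated at -0.03, -0.35 and -0.33 across genes, so the block is a check of numbers only, and no library correlated best with its own number. At 5288226 to 6733511 nuclear counts per library, DDM1 had too few counts to be tested.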
